A study of Mus musculus with 6 samples.

Results

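The axon guidance ligands and receptors described here are the 66 mouse genes whose symbol places them in the semaphorin, plexin, Slit, Robo, netrin, Unc5, ephrin or Eph receptor families. They were taken by symbol alone from the 55385 mouse genes of the count table, with no filter on their levels. The families themselves were chosen with earlier results of these data known. They comprise 35 ligands and 31 receptors. By family there are 20 semaphorins, 9 plexins, 8 ephrins, 14 Eph receptors, 3 Slit ligands, 4 Robo receptors, 4 netrins and 4 Unc5 receptors.

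RNA came from PDVC57, a long-used line of transformed mouse keratinocytes that grows as squamous carcinoma. The labels give 3 libraries of the genotype Sox2 KO (knockout, below KO) and 3 of the genotype Sox2 overexpression (below OE). According to the design text the cells had little or much Sox2, a transcription factor of stem and progenitor cells, and were recovered from grafted tumours, which also contain cells of the host. No unmodified PDVC57 library is among the 6, so each difference below sets overexpression against knockout and does not say on which side of the parental level either group lies. The promoter of the overexpression construct, the number of knockout clones and the number of tumours behind each library are not given in the sources used here, so the p-values measure the spread between these libraries, part of which may be technical.

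These families were named for steering growing axons, and they act as short-range signals between neighbouring cells in many tissues, epithelia included. Eph receptors are receptor tyrosine kinases that bind membrane-anchored ephrins on adjacent cells. Secreted Slit proteins bind Robo receptors and usually repel, semaphorins signal through plexins (class 3 members mostly with a neuropilin coreceptor), and netrins attract or repel through Dcc, Neo1 and Unc5 receptors.

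Each library held between 31247976 and 38543221 counts on mouse genes, and between 59 and 64 of the 66 members had at least 1 count in it. Levels are given as CPM, counts scaled to a library size normalised by TMM (trimmed mean of M-values), and fold changes as OE over KO. Sox2 itself had 49, 34 and 25 counts in the KO libraries and 2566, 3790 and 4095 in the OE libraries, which is 1.08 ± 0.377 against 103 ± 24.9 CPM (SD, n = 3 in each group). This order is that of the labels. The epithelial markers were present in every library, with a summed level of 7598 to 11523 CPM in KO and 17459.6 to 23153 CPM in OE, and 24 of 30 were higher in OE with TMM, while a scaling to this list centres them on no change. Markers of other cells moved with the groups as well. All 10 fibroblast markers were lower in OE, with a summed level of 53098 to 81406 CPM in KO and 282 to 470.0 CPM in OE, and none of them was at 0 throughout a group. Of the 8 mural cell markers, 7 were lower and 1 was higher (sums of 329 to 420.2 against 62.2 to 77.3 CPM). Of the 8 tested endothelial markers out of 9 listed, 7 were lower (36.7, 58.2 and 128 CPM in KO replicates 1, 2 and 3 against 13.0 to 20.2 CPM in OE). Of the 7 tested white blood cell markers out of 10, 5 were lower (39.1, 69.0 and 219.9 CPM against 14.4 to 28.8 CPM). Schwann and glial markers summed to 176 to 316 CPM in KO and 544 to 806 CPM in OE, with 2 of 5 tested higher and Foxd3 and Gfra3 at 0 in all OE libraries. Nerve cell markers summed to 45 to 61.4 and 48.0 to 63.7 CPM, with 1 of 4 tested higher, 2 lower and Nefl at 0 in all OE libraries. The part of any of these cells in the differences below was not tested. In such bulk libraries, fewer cells of a type and less RNA per cell cannot be told apart.

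Of the 66 members, 60 had enough counts to be tested. By edgeR's quasi-likelihood test with Benjamini-Hochberg adjustment over all 18504 tested genes, at an adjusted p under 0.05, 11 members were higher in OE and 29 were lower, while 20 did not pass. The higher members were 18.3% of those tested, beside 13.6% of all tested genes, and the lower members 48.3%, beside 18% of all tested genes. In either direction 31.6% of all tested genes were called. The counts by family and class below are of few genes each and stand beside these same shares. The median log2 fold change was -0.64 over the 60 members and -0.016 over all tested genes. The CPM of the KO and OE libraries did not overlap for 43 of the 60 members (71.7%), beside 50.9% of all tested genes. When the libraries were scaled to 30 epithelial genes in place of TMM, 1 member was higher and 49 were lower, and the median over all tested genes moved to -1.22, with that of the members at -1.78.

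The filter on low counts bears on the lower members. Unc5a, Robo2, Sema3g, Plxnc1, Ntn3, Sema5b, Robo4 and Ephb1 passed it only through their KO libraries, so these 8 could enter the test only with the higher level in KO, and all 8 were lower in OE. The other 52 members reached the filter's level in at least 1 library of each group, and 11 of them were higher, 21 lower and 20 did not pass the test. The filter asks for as many libraries as a group holds, so not all of these would have passed in each group alone. Robo1, Sema6b and Slit1 reached the level in 3 KO and 2 OE libraries and Unc5c in 3 and 1, and all of these were lower. Unc5d, which did not pass the test, reached it in 2 and 1. Of the 36 members with an average log2 CPM of at least 4, 10 were higher (27.8%, beside 20.9% of all tested genes at that level) and 11 were lower (30.6%, beside 11.9%). Of the 24 members below that level, 1 was higher (4.17%, beside 7.22%) and 18 were lower (75%, beside 23.4%). These 18 include the 8 whose direction the filter fixed, and without them 10 of 16 were lower, among these Robo1, Sema6b, Slit1 and Unc5c. The shares of all tested genes were not split by the group through which a gene passed the filter. They are thus no matching values for these 16 members or for the 52.

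**Figure D1:**
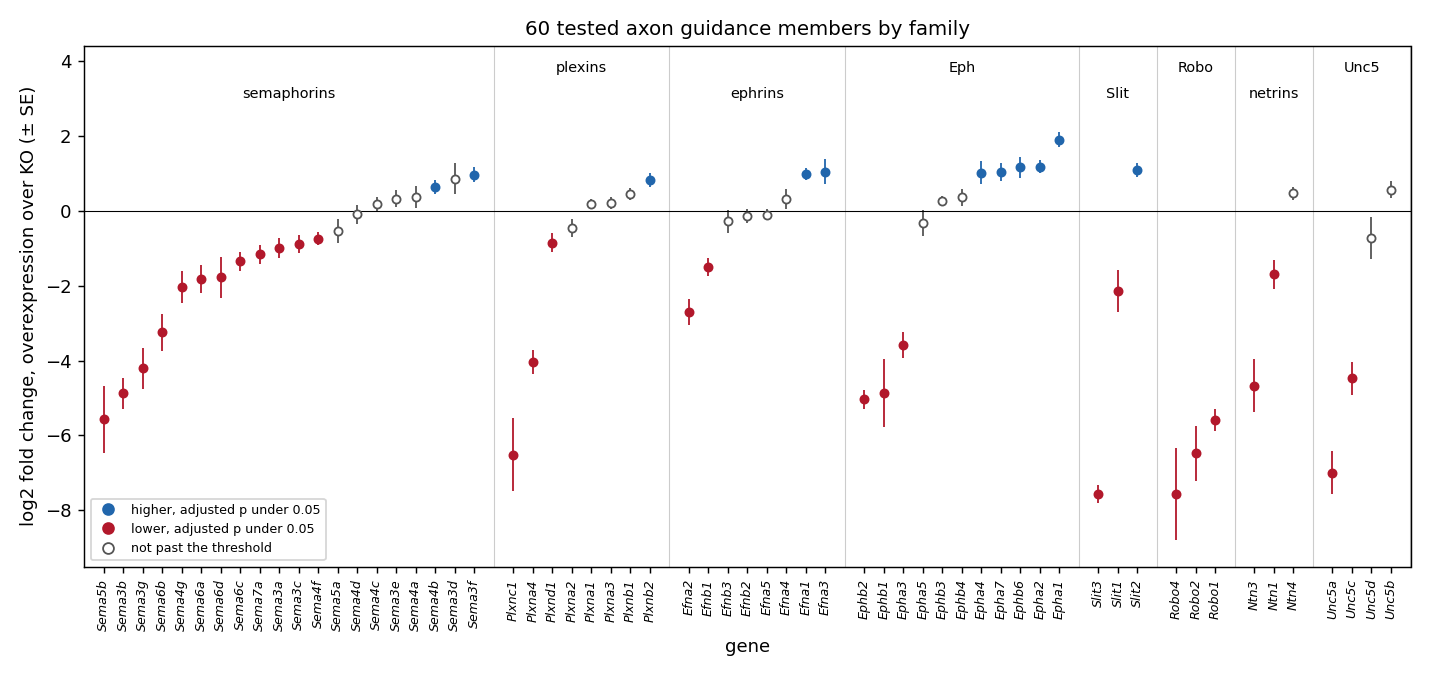
Log2 fold change (OE over KO, TMM normalisation) of the 60 tested members by family, with standard errors as bars. The 29 lower members (red) reach beyond -7 for Slit3 and Robo4, while the 11 higher members (blue) lie between 0.64 and 1.90, and 10 of those 11 turn negative when libraries are scaled to epithelial genes, Epha1 being the exception.

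The promoters of 2 members that rose and 2 that fell with TMM are shown with a search for a short SOX core. Windows from 250 bases before to 50 bases after the annotated start were found for 57 of the 66 members in RefSeq (GRCm38.p6), those not found being Efnb3, Ntn1, Plxna1, Plxna4, Sema3b, Sema3f, Sema6a, Slit1 and Unc5d. Printed are the 200 bases from 250 to 51 before the start, which overlap no annotated exon, 5′ to 3′ on the strand of the gene, for Epha1 and Slit2, which rose with TMM (Slit2 had -0.078 with epithelial scaling), and Ephb2 and Efna2, which fell. Capitals mark a match to ACAATG or ACAAAG, the letters of a short core recognised by SOX proteins, searched on both strands.
Epha1 (chr6:42373319-42373518, minus strand): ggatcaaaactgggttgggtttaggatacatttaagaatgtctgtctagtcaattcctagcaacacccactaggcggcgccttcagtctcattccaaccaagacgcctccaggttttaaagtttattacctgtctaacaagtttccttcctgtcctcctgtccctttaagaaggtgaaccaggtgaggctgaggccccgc
Slit2 (chr5:47982905-47983104, plus strand): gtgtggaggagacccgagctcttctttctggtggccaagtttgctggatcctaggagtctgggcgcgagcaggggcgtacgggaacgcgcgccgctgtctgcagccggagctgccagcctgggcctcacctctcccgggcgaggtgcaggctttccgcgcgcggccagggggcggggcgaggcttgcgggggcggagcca
Ephb2 (chr4:136836063-136836262, minus strand): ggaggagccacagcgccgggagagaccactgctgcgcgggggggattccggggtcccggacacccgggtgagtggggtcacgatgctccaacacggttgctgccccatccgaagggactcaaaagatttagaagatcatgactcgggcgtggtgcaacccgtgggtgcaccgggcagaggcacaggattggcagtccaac
Efna2 (chr10:80179232-80179431, plus strand): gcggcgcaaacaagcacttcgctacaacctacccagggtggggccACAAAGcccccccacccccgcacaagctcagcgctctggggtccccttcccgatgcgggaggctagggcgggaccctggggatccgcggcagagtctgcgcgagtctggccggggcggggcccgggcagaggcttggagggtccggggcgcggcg
The Epha1 stretch is 48.0% G and C and has 4 CG pairs, while those of Slit2, Ephb2 and Efna2 are 71.5%, 64.5% and 73.5% and have 20, 14 and 19, so composition did not follow the direction of change in these 4. The 6 letters were found in the printed stretch of Efna2 and in none of the other 3. These 4 are examples and not the members with the smallest p-values. Robo1, Unc5a, Epha3 and Robo2, which fell with smaller p-values than Efna2, held no match in the same stretch, nor did Epha2, which rose with a smaller one than Slit2. Over the whole 300-base windows, 13 of 57 members (22.8%) held at least 1 match, beside 7777 of 27025 genes (28.8%). Among the members it was 1 of 10 that rose, 6 of 24 that fell and 5 of 17 that did not pass. A match is a description of the letters and not of a bound site.

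The Eph receptors held the member with the largest fitted rise, Epha1, and also members that fell. Of the 11 tested, 5 rose (Epha1, Epha2, Epha4, Epha7 and Ephb6) and 3 fell (Ephb2, Epha3 and Ephb1). That was 45.5% higher and 27.3% lower, beside 13.6% and 18% of all tested genes. Of the 5 that rose, only Epha1 stayed higher when libraries were scaled to epithelial genes. Within the 6 tested EphA receptors 4 rose and 1 fell, and within the 5 EphB receptors 1 rose and 2 fell, the rises again under TMM and with the same exception of Epha1 alone under epithelial scaling.

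Epha1 (chromosome 6, 42358487 to 42373268, minus strand, GRCm38), a receptor of ephrin-A ligands found mostly in epithelia, had 28.1, 21.3 and 21.0 CPM in the KO libraries and 70.0, 104 and 88.7 CPM in the OE libraries. All OE libraries lay above all KO libraries, and the mean was 23.5 ± 4.04 against 87.5 ± 16.9 CPM (SD, n = 3), a log2 fold change of 1.90 ± 0.20 (SE; edgeR adjusted p = 0.00015). With epithelial scaling the value was 0.71 (edgeR adjusted p = 0.0114). Of its exon bases, 6% overlap Zyx, and since the strand setting of the counting is not given, reads of that stretch could belong to either gene.

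Epha2 (chromosome 4, 141301240 to 141329384, plus strand), the EphA receptor best known from carcinoma, was the most abundant Eph receptor in OE per length of exon. Its levels were 348, 316 and 270.1 CPM in KO and 689, 810.5 and 614 CPM in OE, with no overlap. It rose from 311 ± 39.3 to 704 ± 99.1 CPM, a log2 fold change of 1.18 ± 0.18 (edgeR adjusted p = 0.00128), which was -0.011 with epithelial scaling. Epha7 rose from 43.7, 35.8 and 28.6 CPM to 88.9, 49.7 and 82.4 CPM (log2 fold change 1.03 ± 0.25, edgeR adjusted p = 0.0131; -0.13 with epithelial scaling).

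Ephb6, a receptor whose kinase domain lacks catalytic activity, had 40.8, 49.6 and 26.6 CPM in KO and 58.2, 112 and 90.6 CPM in OE (log2 fold change 1.16 ± 0.29, edgeR adjusted p = 0.0156; -0.020 with epithelial scaling). The groups did not overlap, but without OE replicate 2 the adjusted p was 0.0551. Epha4, which binds ephrins of both classes, had 64.7, 42.3 and 31.8 CPM in KO and 104, 60 and 116 CPM in OE (log2 fold change 1.01 ± 0.31, edgeR adjusted p = 0.0363; -0.12 with epithelial scaling). Here the groups overlapped, since OE replicate 2 lay below KO replicate 1. The call of Epha4 was lost without KO replicate 2 (adjusted p = 0.113), KO replicate 3 (0.0999), OE replicate 1 (0.0729) or OE replicate 3 (0.106).

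Among the Eph receptors that fell, Ephb2 (chromosome 4, 136647539 to 136835988, minus strand), which sorts cells into compartments in the intestine, had the smallest adjusted p. Its levels were 38.9, 31.7 and 29.8 CPM in KO and 0.763, 0.947 and 1.32 CPM in OE. The fall from 33.5 ± 4.80 to 1.01 ± 0.281 CPM was a log2 fold change of -5.04 ± 0.26 (edgeR adjusted p = 2.84e-06), and each KO library exceeded the OE libraries many times over. Epha3 fell from 8.87 ± 2.08 to 0.731 ± 0.265 CPM (log2 fold change -3.58 ± 0.36, edgeR adjusted p = 0.00011). Ephb1 was scarce throughout, with 39 counts over the KO libraries and 1 over the OE libraries, a ratio of levels of 39.4 with a counting interval of 6.67 to 1595 (exact binomial, 95%, counting error only). Without OE replicate 1, the one with a count, its fitted log2 fold change went from -4.87 to -6.74, and it passed the filter only through KO.

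Among the receptors of this family that did not pass, Ephb4, the receptor of ephrin-B2 known from blood vessel growth, was the most abundant. It had 347, 293 and 301 CPM in KO and 281, 505 and 418 CPM in OE, so OE replicate 1 lay below the KO libraries and OE replicates 2 and 3 above them (log2 fold change 0.36 ± 0.22, edgeR adjusted p = 0.254). Without OE replicate 1 the adjusted p was 0.0455, and with epithelial scaling the value was -0.85. Ephb3 had 46.8, 49.2 and 49.5 CPM in KO and 59.4, 61.6 and 53.9 CPM in OE (log2 fold change 0.26, edgeR adjusted p = 0.163; -0.95 with epithelial scaling), and Epha5 1.5 to 2.84 CPM over all libraries (log2 fold change -0.33, edgeR adjusted p = 0.493; -1.54 with epithelial scaling).

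Of the 8 ephrins, all tested, 2 rose (Efna1 and Efna3, both with negative values under epithelial scaling), 2 fell (Efna2 and Efnb1) and 4 did not pass. That was 25% in each direction, beside 13.6% higher and 18% lower of all tested genes. Efna1 (chromosome 3, 89271733 to 89281142, minus strand), a GPI-anchored ligand of Epha2, had 44.3, 37.1 and 35.2 CPM in KO and 67.3, 90.2 and 73.4 CPM in OE. No OE library fell within the KO range, and the mean rose from 38.9 ± 4.82 to 77.0 ± 11.8 CPM (log2 fold change 0.99 ± 0.17, edgeR adjusted p = 0.00233; -0.21 with epithelial scaling). Efna3 was far less abundant, at 3.75, 2.22 and 3.75 CPM against 5.07, 6.22 and 8.80 CPM (log2 fold change 1.05 ± 0.32, edgeR adjusted p = 0.0379; -0.17 with epithelial scaling). Its call was lost without KO replicate 1 (adjusted p = 0.0517), KO replicate 2 (0.12), OE replicate 2 (0.0657) or OE replicate 3 (0.137), and 14.1% of its exon bases overlap the gene Gm15998.

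Efnb1 (chromosome X, 99136130 to 99148991, plus strand), a transmembrane ligand of EphB receptors, fell. It had 24.2, 34.6 and 30.6 CPM in KO and 7.96, 9.98 and 13.5 CPM in OE, without overlap (29.8 ± 5.27 to 10.5 ± 2.79 CPM, log2 fold change -1.51 ± 0.24, edgeR adjusted p = 0.0015). Efna2 (chromosome 10, 80179482 to 80190010, plus strand) fell from 2.82 ± 0.296 to 0.430 ± 0.0767 CPM (log2 fold change -2.71 ± 0.34, edgeR adjusted p = 0.000462). Efnb2, Efna5, Efna4 and Efnb3 did not pass, and their groups overlapped. Efnb2 had 129, 83.8 and 124 CPM against 107, 102 and 98.0 CPM (log2 fold change -0.14, edgeR adjusted p = 0.604; -1.35 with epithelial scaling), Efna5 45.3, 54.6 and 40.6 CPM against 43.0, 42.8 and 45.2 CPM (-0.10, 0.649; -1.29 with epithelial scaling), and Efna4 9.13 to 13.7 CPM against 11.1 to 18.5 CPM (0.32, 0.389; -0.86 with epithelial scaling). Efnb3 was at 1.49 to 2.38 CPM in all libraries (log2 fold change -0.29, edgeR adjusted p = 0.519). All 4 were called lower with epithelial scaling.

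The Slit ligands changed places. Slit3 (chromosome 11, 35121224 to 35708507, plus strand), a secreted ligand of Robo receptors, had 185, 218 and 241 CPM in the KO libraries and 0.885, 1.18 and 1.34 CPM in the OE libraries. It went from 215 ± 28.2 to 1.14 ± 0.231 CPM, a log2 fold change of -7.55 ± 0.24, with the smallest adjusted p of the members (edgeR, 1.06e-06). Slit2 (chromosome 5, 47983138 to 48307733, plus strand) went the other way, from 73.3, 71.5 and 49.9 CPM to 163, 118 and 134 CPM (64.9 ± 13.0 to 138 ± 22.6 CPM, log2 fold change 1.09 ± 0.20, edgeR adjusted p = 0.00329). With epithelial scaling, which lowers all values by about the same amount, Slit2 had a log2 fold change of -0.078 and Slit3 one of -8.78.

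Shares of a family within a library do not depend on the scaling between libraries. They do depend on the exon length, here that of all annotated exons of a gene merged, which is 25433 bases for Slit2 and 6067 for Slit3. By CPM, without regard to length, Slit3 also exceeded Slit2 in every KO library and Slit2 exceeded Slit3 in every OE library, by smaller shares. Per kilobase of exon, Slit3 made up 90.4%, 91.9% and 95.1% of the summed Slit level in the KO libraries and 2.21%, 4% and 3.98% in the OE libraries. Slit2 made up 8.55%, 7.17% and 4.70% and then 96.9%, 95% and 94.8%. The summed level per length, scaled as TPM over all genes, was 134 ± 14.7 in KO and 17.4 ± 4.41 in OE. Slit1 was low, at 2.08, 2.18 and 0.548 CPM against 0.366, 0.304 and 0.405 CPM, and fell by 2.14 on the log2 scale (edgeR adjusted p = 0.0198). The call of Slit1 was lost in the fits without KO replicate 1 (adjusted p = 0.057), KO replicate 2 (0.0714), OE replicate 1 (0.0527), OE replicate 2 (0.0761) and OE replicate 3 (0.0556).

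All 3 tested Robo receptors fell, of which Robo2 and Robo4 passed the filter on low counts only through their KO libraries and could be tested only with KO higher. Robo1 (chromosome 16, 72308306 to 73046095, plus strand) had 19.8, 16.6 and 15.8 CPM in KO and 0.366, 0.237 and 0.455 CPM in OE (log2 fold change -5.59 ± 0.30, edgeR adjusted p = 3.46e-06). Its KO libraries lay close together, unlike those of the other Robo genes. Robo2 (chromosome 16, 73891839 to 74411825, minus strand) had 15.9, 5.26 and 3.37 CPM in KO and 0.0610, 0.101 and 0.101 CPM in OE (log2 fold change -6.48 ± 0.75, edgeR adjusted p = 0.00026). KO replicate 1 held the highest of these levels, and without it the KO mean went from 8.19 to 4.31 CPM and the log2 fold change was -5.54.

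Robo4 (chromosome 9, 37401897 to 37415115, plus strand), the member of the family known from blood vessel endothelium, had 34, 28 and 210 counts in the KO libraries and 1, 0 and 0 in the OE libraries. In KO this was 0.997, 0.926 and 5.76 CPM, with replicate 3 far above the others. The ratio of levels was 275 with a counting interval of 48.9 to 10892 (exact binomial, 95%), and the edgeR adjusted p was 0.00186. Without KO replicate 3 the KO mean went from 2.56 to 0.961 CPM and the fitted log2 fold change from -7.57 to -6.14, and without OE replicate 1, the one with a count, it was -9.44. KO replicate 3 also had the highest summed endothelial and white blood cell markers, 128 and 219.9 CPM, and their part in this value was not tested. Together the Robo receptors reached a level per length of 4.91 to 8.44 in KO, against 122 to 150.4 for the Slit ligands in the same libraries, and 0.0535 to 0.118 in OE. The contrast between the families depends on the merged exon lengths as well, which are 16511 bases for Robo1 and 16983 for Robo2.

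**Figure D2:**
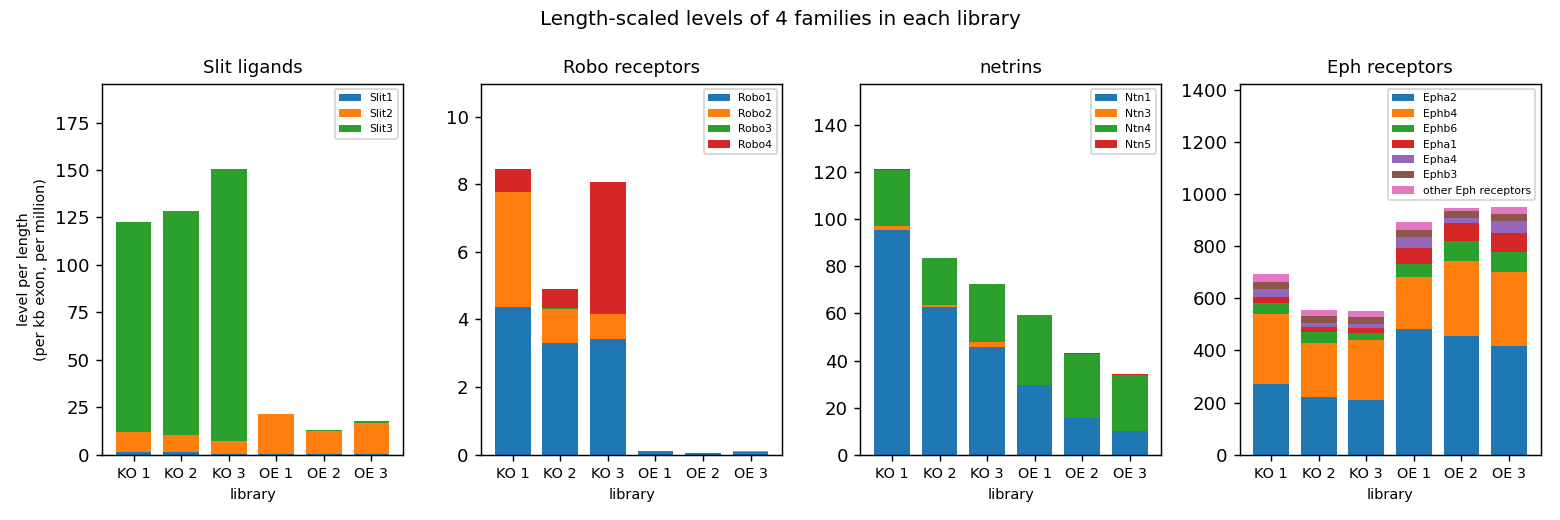
Summed level per length (counts per kilobase of exon, scaled as TPM over all genes; linear axes from 0) of the Slit, Robo, netrin and Eph families in each KO and OE library, split by gene. Slit3 fills at least 90.4% of the Slit bars in KO and at most 4% in OE, the Robo bars in OE are at most 0.118 high, and Epha2 and Ephb4 make up most of the Eph bars in all 6 libraries.

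The semaphorins were the largest family, with 20 members tested. Of these, 12 fell (60%, beside 18% of all tested genes), 2 rose (10%, beside 13.6%) and 6 did not pass. Under epithelial scaling both that rose had negative values. By class, 4 of 7 class 3 members, 2 of 6 class 4 members, 1 of 2 class 5 members, all 4 class 6 members and the single class 7 member fell. Among these, Sema3g (class 3) and Sema5b (class 5) passed the filter on low counts only through KO and could be tested only with KO higher. Class 3 semaphorins are secreted, and the smallest adjusted p among them was that of Sema3b (chromosome 9, 107597674 to 107609229, minus strand). It had 19.1, 51.5 and 51.2 CPM in KO and 1.25, 1.42 and 1.47 CPM in OE (40.6 ± 18.6 to 1.38 ± 0.114 CPM, log2 fold change -4.87 ± 0.41, edgeR adjusted p = 4.03e-05). KO replicate 1 was below the other KO libraries and still well above the OE libraries.

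Sema3f (chromosome 9, 107681500 to 107710475, minus strand), which lies near Sema3b on the same strand and is a ligand of neuropilin-2, went the other way. Its levels were 72.5, 53.4 and 47.3 CPM in KO and 103, 128 and 107 CPM in OE (log2 fold change 0.97 ± 0.19, edgeR adjusted p = 0.00503; -0.21 with epithelial scaling). Sema3c was the most abundant class 3 member in KO per length of exon, with 156, 204 and 202 CPM against 129, 70.6 and 104 CPM (log2 fold change -0.89 ± 0.23, edgeR adjusted p = 0.0189). The groups did not overlap, but the call was lost without KO replicate 2 (adjusted p = 0.0698), KO replicate 3 (0.0551) or OE replicate 3 (0.0535).

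Sema3a, the founding repellent of the class, had 22.2, 11.9 and 15.6 CPM against 10, 6.97 and 7.87 CPM (log2 fold change -0.999 ± 0.27, edgeR adjusted p = 0.0212), a call lost without KO replicate 1 (0.076), OE replicate 2 (0.0726) or OE replicate 3 (0.0691). Sema3g fell from 1.67 ± 0.574 to 0.0839 ± 0.0468 CPM (edgeR adjusted p = 0.000527). Sema3d and Sema3e did not pass. Sema3d spread widely, at 6.45, 15.6 and 15.0 CPM against 18.2, 13.7 and 34.9 CPM (log2 fold change 0.85 ± 0.41, edgeR adjusted p = 0.153; -0.40 with epithelial scaling), and Sema3e had 48.0 to 65.9 CPM against 60 to 101 CPM (log2 fold change 0.33, edgeR adjusted p = 0.314; -0.89 with epithelial scaling).

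Class 6 semaphorins are transmembrane ligands of class A plexins. Sema6c (chromosome 3, 95160457 to 95174024, plus strand) fell from 19.5, 28.6 and 27.2 CPM to 6.93, 12.1 and 10.5 CPM (log2 fold change -1.35 ± 0.25, edgeR adjusted p = 0.00358), with no overlap. Sema6b fell from 3.69 ± 1.5 to 0.387 ± 0.165 CPM (log2 fold change -3.25 ± 0.50, edgeR adjusted p = 0.0013), and Sema6a from 6.44 ± 1.92 to 1.81 ± 0.703 CPM (log2 fold change -1.82, edgeR adjusted p = 0.00567). In Sema6d 1 KO library stood far above the rest. It had 11.8, 18.8 and 58.0 CPM in KO and 7.60, 6.56 and 11.7 CPM in OE (log2 fold change -1.78 ± 0.54, edgeR adjusted p = 0.036), and without KO replicate 3 the log2 fold change was -0.82 (adjusted p = 0.0956) and the KO mean went from 29.5 to 15.3 CPM. The call was also lost without OE replicate 1 (0.0836), OE replicate 2 (0.139) or OE replicate 3 (0.05004). KO replicate 3 is again the library with the highest endothelial and white blood cell marker sums, whose part was not tested.

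Sema7a, a GPI-anchored semaphorin that signals through integrins and Plxnc1, had 63.7, 67.5 and 67.9 CPM in KO and 33.9, 37.0 and 18.0 CPM in OE (log2 fold change -1.16 ± 0.25, edgeR adjusted p = 0.00798). Sema5b had 63 counts over the KO libraries and 1 over the OE libraries, a ratio of levels of 63.6 with a counting interval of 11.01 to 2553 (exact binomial, 95%), and its fitted log2 fold change went from -5.57 to -7.37 without OE replicate 3, the one with a count. Sema5a, with 43.7, 29.0 and 15.7 CPM against 18.5, 21.6 and 20.7 CPM, did not pass (edgeR adjusted p = 0.234, and 0.028 without KO replicate 3; log2 fold change -0.54, and -1.66 with epithelial scaling).

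Class 4 semaphorins, transmembrane ligands mainly of class B plexins, were more mixed. Sema4g fell from 2.12 ± 0.635 to 0.513 ± 0.184 CPM (edgeR adjusted p = 0.00684) and Sema4f from 24.3 ± 1.07 to 14.5 ± 2.63 CPM (edgeR adjusted p = 0.0131, and 0.0621 without OE replicate 3). Sema4b rose from 49.7, 49.2 and 39.5 CPM to 57, 74.4 and 83.6 CPM (log2 fold change 0.64 ± 0.18, edgeR adjusted p = 0.0282), yet was called lower with epithelial scaling (log2 fold change -0.55, edgeR adjusted p = 0.0343). Its rise was also lost without KO replicate 1 (0.0535), KO replicate 2 (0.0681), KO replicate 3 (0.104), OE replicate 2 (0.0521) or OE replicate 3 (0.0975). Sema4c, Sema4d and Sema4a did not pass, with log2 fold changes of 0.18, -0.090 and 0.36 (edgeR adjusted p of 0.478, 0.811 and 0.391), and Sema4a reached an adjusted p of 0.0292 without KO replicate 3. All 3 had overlapping groups under TMM, and with epithelial scaling Sema4c, Sema4d and Sema4a had values of -1.01, -1.36 and -0.93.

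Among the 8 tested plexins, the receptors of semaphorins, 1 rose (12.5%, beside 13.6% of all tested genes), 3 fell (37.5%, beside 18%) and 4 did not pass. The one that rose was Plxnb2, with a negative value under epithelial scaling. Plxna4, Plxnc1 and Plxnd1 fell, of which Plxnc1 passed the filter only through KO and could be tested only with KO higher. Plxnb2 (chromosome 15, 89155549 to 89180788, minus strand), a receptor of class 4 semaphorins, had 616, 527 and 515 CPM in KO and 966, 1127 and 823 CPM in OE. Every OE library exceeded every KO library (553 ± 55.2 to 972 ± 152 CPM, log2 fold change 0.81 ± 0.18, edgeR adjusted p = 0.00915; -0.38 with epithelial scaling). Plxnb1 had 142, 103 and 112 CPM against 157, 173 and 161 CPM without overlap, but did not pass (log2 fold change 0.46 ± 0.16, edgeR adjusted p = 0.0601; -0.73 with epithelial scaling). It passed without KO replicate 1 (0.0373) and by the Wald test of DESeq2 (0.0378).

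Plxna4 (chromosome 6, 32144268 to 32588192, minus strand), a receptor of class 3 and class 6 semaphorins, fell from 6.92, 8.47 and 7.67 CPM to 0.397, 0.609 and 0.405 CPM (log2 fold change -4.03 ± 0.32, edgeR adjusted p = 2.65e-05). The other class A plexins did not pass. Plxna1 had 159 to 174 CPM in KO and 178 to 198 CPM in OE, without overlap (log2 fold change 0.17, edgeR adjusted p = 0.373; -1.04 with epithelial scaling), Plxna3 lay at 31.2 to 45.2 CPM over all libraries (0.20, 0.366; -0.99 with epithelial scaling), and Plxna2 at 9.37 to 20.6 CPM (-0.46, 0.191; -1.67 with epithelial scaling).

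Plxnd1, the endothelial receptor of Sema3e that other cells also express, had 85.5, 98.9 and 82.6 CPM against 36.5, 72.1 and 39.1 CPM (log2 fold change -0.85 ± 0.26, edgeR adjusted p = 0.0349). Its call was lost without KO replicate 1 (0.0684), KO replicate 2 (0.112), KO replicate 3 (0.0582), OE replicate 1 (0.0984) or OE replicate 3 (0.121). Plxnc1 (chromosome 10, 94790866 to 94944835, minus strand), the receptor of Sema7a, had 36, 43 and 241 counts in KO and 1 in each OE library. The ratio of levels was 108 with a counting interval of 36.5 to 525 (exact binomial, 95%; edgeR adjusted p = 0.00119). KO replicate 3 was again the highest library, and without it the KO mean went from 3.03 to 1.24 CPM and the fitted log2 fold change from -6.52 to -5.21.

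Of the 3 tested netrins, 2 fell (66.7%, beside 18% of all tested genes), of which Ntn3 passed the filter only through KO, and 1 did not pass. Ntn1 (chromosome 11, 68209364 to 68400823, minus strand), the secreted ligand of Dcc and Unc5 receptors, had 165, 120.1 and 79.9 CPM in KO and 56.6, 36.9 and 19.5 CPM in OE. The groups did not overlap, although the libraries of each spread widely (log2 fold change -1.69 ± 0.39, edgeR adjusted p = 0.0107, and 0.0554 without OE replicate 2). Ntn4, a netrin of basement membranes, had 24.7, 22.7 and 25.7 CPM against 33.7, 39 and 28.3 CPM, again without overlap, and did not pass (log2 fold change 0.47 ± 0.17, edgeR adjusted p = 0.0632, and 0.0499 without OE replicate 3; -0.75 with epithelial scaling). Per kilobase of exon and within a library, Ntn1 made up 78.7%, 74.8% and 63.3% of the summed netrin level in KO and 49.8%, 36.0% and 28.9% in OE, and Ntn4 19.8%, 23.7% and 34.1% and then 49.8%, 63.7% and 70.4%. Ntn3 fell from 2.40, 1.72 and 2.66 CPM to 0.0610, 0 and 0.177 CPM (log2 fold change -4.67 ± 0.71, edgeR adjusted p = 0.00122), and without OE replicate 3 the value was -5.98.

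Of the 4 Unc5 receptors, which bind netrins and usually repel, Unc5a (past the filter only through KO) and Unc5c fell, and Unc5b and Unc5d did not pass. Unc5a (chromosome 13, 54949411 to 55006018, plus strand) had 4.25, 3.90 and 4.44 CPM in KO, close together, and 2, 0 and 1 counts in the OE libraries. The ratio of levels was 143 with a counting interval of 48.6 to 697 (exact binomial, 95%; edgeR adjusted p = 3.63e-05), and the fitted log2 fold change was -6.99, or -7.85 without OE replicate 1. Unc5c (chromosome 3, 141465216 to 141834924, plus strand) fell from 5.48, 7.04 and 4.52 CPM to 0.214, 0.406 and 0.152 CPM (edgeR adjusted p = 0.000105). Unc5b, by far the most abundant of the family, had 97.2, 59.3 and 57.9 CPM against 127, 98.4 and 90.9 CPM (log2 fold change 0.56 ± 0.23, edgeR adjusted p = 0.102; -0.60 with epithelial scaling). KO replicate 1 lay within the OE range, and without it the adjusted p was 0.0167. Unc5d was at 0.169 to 0.661 CPM (edgeR adjusted p = 0.354).

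**Figure D3:**
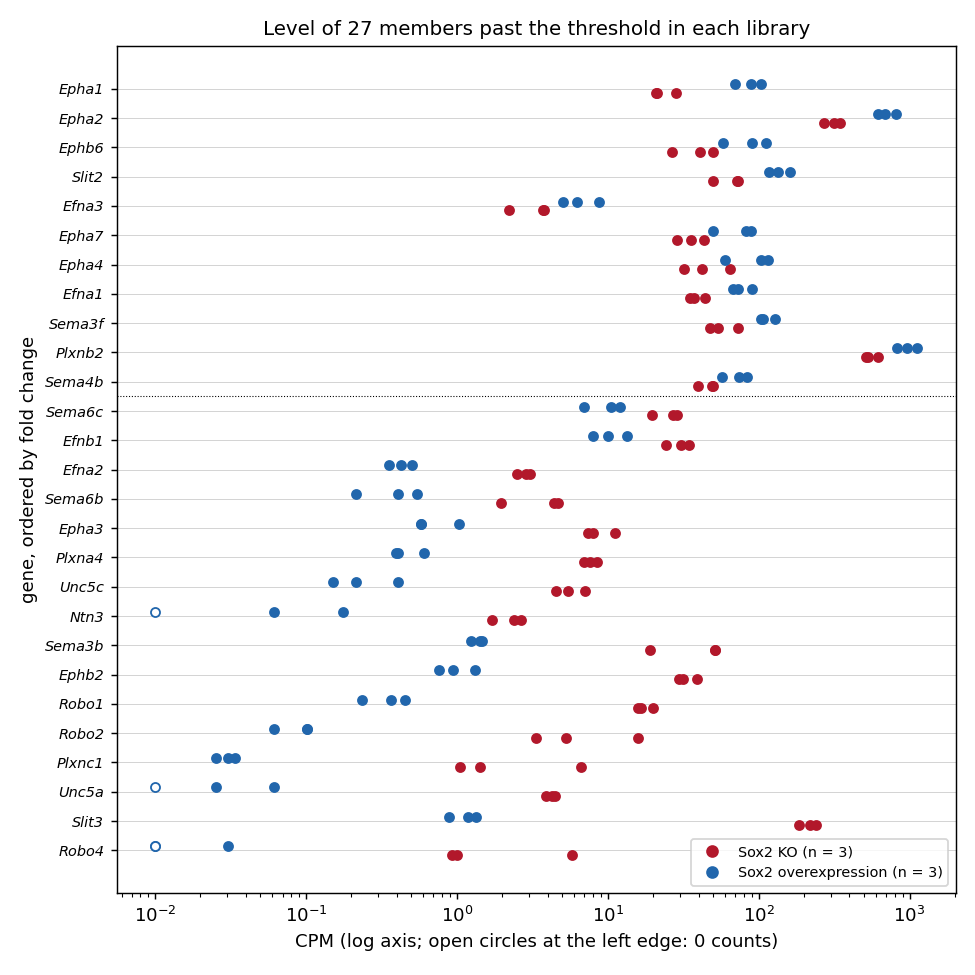
CPM (log axis) of 27 members in each of the 3 KO and 3 OE libraries, the 11 that were higher in OE above the dotted line and below it 16 of those that were lower, with open circles for libraries with 0 counts. The lower members separate further, Slit3 from 185 to 241 CPM in KO to 0.885 to 1.34 CPM in OE, while Epha4 is the one gene drawn whose groups overlap, and 10 of the 11 higher genes, all but Epha1, turn negative with epithelial scaling.

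Compared with each other per kilobase of exon, scaled as TPM over all genes, Plxnb2 (251 ± 34.3), Ephb4 (237 ± 32.5) and Epha2 (233 ± 32.8) led the members in KO, and their spreads overlapped. Slit3 (124 ± 16.9), Sema3c (91.4) and Efna1 (74.5 ± 11.6) came next. In OE the order was Epha2 (452 ± 33.5), Plxnb2 (378 ± 36.7), Ephb4 (257 ± 50.5) and Efna1 (126 ± 4.60), and Slit3 had gone from rank 4 to rank 42. Within the Eph receptors, Epha2 made up 38.9 ± 1.07% of the summed level per length in KO and 48.7 ± 5.13% in OE, and Ephb4 39.6 ± 2.63% and 27.5 ± 4.57%. Within the ephrins, the share of Efna1 was 31.1 ± 1.76% and 50.6 ± 2.34%, and within the plexins that of Plxnb2 was 58.9 ± 1.38% and 71.1 ± 2.05%. Within the Unc5 receptors Unc5b made up 88.9 ± 2.68% and 99.7 ± 0.021%. These shares are within a library and carry no scaling between libraries, but they and the order above depend on the merged exon lengths.

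Epithelial scaling shifted the median of all tested genes by -1.20 and single genes by about as much. Lower members could thus only stay lower, and rises well below the shift could only turn. All 29 lower members stayed lower, 1 of the 11 higher members stayed higher, 9 no longer passed and Sema4b was called lower. Of the 20 members not past the threshold with TMM, 19 were called lower with epithelial scaling, all but Sema3d. Since the scaling moves all values by about the same amount, distances from the median of all tested genes could only stay nearly the same. They are given as a description and not as a test. Slit2 was 1.11 above that median with TMM and 1.14 above it with epithelial scaling, Epha1 1.91 and 1.92 above it, and Slit3 stood at -7.54 and -7.57 relative to it.

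**Figure D4:**
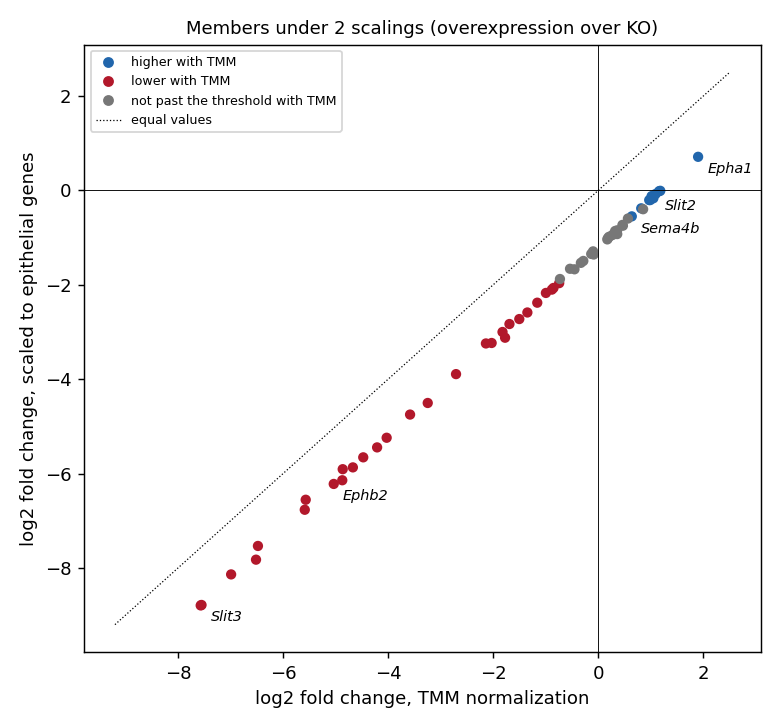
Log2 fold change (OE over KO) of the 60 tested members with TMM (x axis) and with libraries scaled to 30 epithelial genes (y axis), coloured by the call with TMM, with a dotted line for equal values. All points lie below the line, Epha1 is the only member above 0 with epithelial scaling (0.71), and Slit3 and Ephb2 are far below 0 with both.

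Other genes of the same pathways, from lists made by function with earlier results of these data known, moved in both directions. Of 26 coreceptors and other cues, 24 were tested, of which 4 were higher (16.7%, beside 13.6% of all tested genes) and 12 lower (50%, beside 18%). The median log2 fold change of the 24 was -0.77, beside -0.016 for all tested genes. With epithelial scaling, Nrp1 and Nrp2 of the 4 were called lower (log2 fold changes of -0.59 and -0.63, edgeR adjusted p of 0.019 and 0.0139). Met had a negative value that did not pass, and Flrt3 had 0.044. The neuropilins, coreceptors of class 3 semaphorins, were higher in OE, Nrp1 at 206 ± 29.9 against 309 ± 16.5 CPM (edgeR adjusted p = 0.0235) and Nrp2 at 179.8 ± 21.0 against 265 ± 18.3 CPM (0.0238). Both calls were lost without KO replicate 2 (adjusted p = 0.0799 and 0.0587), KO replicate 3 (0.101 and 0.103) or OE replicate 3 (0.068 and 0.0538), and that of Nrp2 also without KO replicate 1 (0.0545). Met and Flrt3 lost theirs in 3 and 4 of the 6 fits that leave out 1 library. Nfasc, Draxin, Ntng2 and Nrcam, which are known from nerve cells, had the smallest p-values among the lower genes, with log2 fold changes of -5.80, -6.95, -3.65 and -5.70, and without KO replicate 3 that of Nrcam was -4.98 with its KO mean going from 5.30 to 3.24 CPM. The netrin receptor Dcc was too scarce to test, and its relative Neo1 did not pass (log2 fold change -0.36, edgeR adjusted p = 0.063).

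Of 62 genes of intracellular signalling, which pass the receptor signal on to the cytoskeleton, 59 were tested, of which 4 were higher (6.78%, beside 13.6% of all tested genes), 18 lower (30.5%, beside 18%) and 37 not past the threshold (median log2 fold change -0.11). The 4 higher genes were Ngef (1.28), Limk2 (0.55), Src (0.56) and Arhgef11 (0.41), each of which lost its call in at least 2 of the 6 fits that leave out 1 library. Limk2, Src and Arhgef11 were called lower with epithelial scaling (edgeR adjusted p of 0.0139, 0.0212 and 0.00614). The lower genes with the smallest p-values were Mical1 (-8.00), an enzyme that acts on actin downstream of plexins, Kalrn (-3.87), Srgap1 (-6.47), a partner of Robo receptors, and Pdzrn3 (-5.18).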

How the data were processed

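The authors deposited a table of unnormalized whole-number counts for each gene, 1 column per library. The submitters' processing notes name kallisto 0.44.0 and mm10 without giving their roles; the counting program, annotation and strand setting are not given in the sources used here. Of 55481 rows, 96 that stand for no mouse gene were dropped; their share of any library was 2.23e-05% or less. Symbols, positions and exon lengths came from GENCODE M21 (GRCm38), with 55144 of 55385 gene IDs matched. Libraries were made with a low-input kit, per the labels' protocols.

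Low genes were removed by filterByExpr (minimum count 10, minimum total 15) and tested with edgeR 4.0.16 in R 4.3.3 (TMM, quasi-likelihood test, group as the only term, all 6 libraries), with Benjamini-Hochberg adjustment over 18504 genes and a threshold of 0.05. On simulated counts with 200 of 18504 genes changed, the procedure recovered 92 of the 200. These were 72 of 108 genes changed 4-fold and 20 of 92 changed 2-fold, and 6 of its 98 calls were false. Far more genes were called in the real data, so recovery there may differ. A member that did not pass is thus not shown to be unchanged. SE is the absolute log2 fold change divided by the square root of F. At these depths 3 counts correspond to 0.0759 to 0.101 CPM. Levels per length are counts per kilobase of exon scaled as TPM over all genes, and serve only to compare genes. The exon length is that of all annotated exons of a gene merged, whichever transcripts were expressed. The members and lists were chosen with earlier results of these data known. Named by rule were Sox2, the 16 lower and up to 12 higher members with the smallest p-values among those past the threshold with an average log2 CPM of at least 0, the members with an average of at least 4 that did not pass, and the 4 genes in each direction with the smallest p-values of each pathway list. Most of these members are given with their level in each library. Epha3, Efna2 and Sema6b are given by group means, and Sema4a, Sema4c and Sema4d without levels. Other members are given in varying detail. Alternatives were RLE, upper-quartile and epithelial scaling, no filter beyond 1 count, a robust dispersion, a block on the replicate number, DESeq2 1.42.0, and leaving out each library in turn.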

Additional observations from a re-analysis of the deposited data

How the results depend on the processing

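The counts of 11 higher and 29 lower members were the same with RLE normalization, upper-quartile normalization and robust dispersion, and all 40 calls were kept in these fits, without the filter (13 and 29, adding Sema3d and Unc5b) and by the DESeq2 Wald test (12 and 29, adding Plxnb1). Leaving out each library in turn gave 8 to 11 higher and 23 to 27 lower members, and 29 of the 40 calls (7 higher, 22 lower) were kept in all 6 of these fits. The fit with the replicate number as a block gave 12 and 29 (adding Unc5b) and cost Arhgef11 and Src, of the pathway lists, their calls. Deviations of same-numbered libraries had correlations of 0.051, 0.022 and -0.040. With 3 libraries in each group these values cannot tell whether same-numbered libraries were handled together.

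Epithelial scaling gave 1 higher and 49 lower members, with 340 higher and 14090 lower calls over all genes beside 2519 and 3329 with TMM; its log2 fold changes had the opposite sign for Efna1 (-0.21), Efna3 (-0.17), Efna4 (-0.86), Epha2 (-0.011), Epha4 (-0.12), Epha7 (-0.13), Ephb3 (-0.95), Ephb4 (-0.85), Ephb6 (-0.020), Ntn4 (-0.75), Plxna1 (-1.04), Plxna3 (-0.99), Plxnb1 (-0.73), Plxnb2 (-0.38), Sema3d (-0.40), Sema3e (-0.89), Sema3f (-0.21), Sema4a (-0.93), Sema4b (-0.55), Sema4c (-1.01), Slit2 (-0.078), Unc5b (-0.60), Arhgef11 (-0.80), Limk2 (-0.65), Met (-0.51), Nrp1 (-0.59), Nrp2 (-0.63) and Src (-0.65). By its construction this scaling sets the epithelial list, not the bulk of the genes, to no change. Leaving out 1 library turned the sign of 2 members that had not passed, Efna5 and Sema4d. Efna5 had -0.10 in the main fit and 0.029 without KO replicate 2. Sema4d had -0.090 in the main fit and values above 0 without KO replicate 3 or OE replicate 3, the highest being 0.25. Over the alternatives other than epithelial scaling, their lowest values were -0.19 and -0.26. With 3 libraries in each group, an exact permutation test of a single gene cannot go below 0.1, so each call rests on the spread shared across genes, and members with 3 counts or fewer over a group have fold changes limited by counting.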

Other observations

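The 6 members left out of the test were close to the limit of detection. Epha10 had 5, 1 and 19 counts in the KO libraries and 4, 6 and 1 in the OE libraries, Plxnb3, a plexin known from the nervous system, 7, 36 and 0 against 8, 3 and 6, and Ntn5 3, 3 and 0 against 5, 3 and 3. Epha8 had counts only in OE replicates 1 and 2 (4 and 2), Epha6 only in KO replicate 1 (2), and Robo3 2 in KO replicate 2 and 1 in each of OE replicates 1 and 3. Fitted without the filter, their edgeR adjusted p-values ran from 0.227 (Epha8) to 0.999 (Robo3), so no difference was detectable at this depth. The KO libraries did not rank the same way for all these genes: replicate 3 held the highest count of Epha10 and replicate 2 that of Plxnb3.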
